A study of Mus musculus with 6 samples.

Results

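Transcripts of cholesterol synthesis and of its control by SREBP2 were compared between alveolar macrophages with and without a Cre recombinase that acts on Pex5. The set was chosen by gene symbol and holds 27 of the 25664 genes in the count table: 20 enzymes, 6 genes of the SREBP2 control machinery and Stard4, a sterol carrier. All 27 were among the 11011 genes with enough counts to be tested. These macrophages live in the airspaces of the lung, where they clear surfactant and particles, and were sorted from lavage fluid. 3 libraries were of mouse genotype Vav1cre/+ Pex5fl/fl, called Pex5-deficient here, and 3 from Pex5fl/fl mice, called control. The control libraries carry WT in their titles, but both groups share the floxed Pex5 alleles and the groups differ by the Vav1cre allele. Vav1-Cre acts in blood-forming cells and so in most of their progeny, and is not limited to macrophages. No age, sex or treatment of the mice is given in the labels, and separate mice are not stated, so the p-values cover the spread between these samples alone, which may be technical.

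Cells build cholesterol from acetyl-CoA through mevalonate, the isoprenoid farnesyl diphosphate, squalene and lanosterol. SREBP2, encoded by Srebf2, is a transcription factor held in the endoplasmic reticulum with its escort SCAP. When membrane cholesterol is low, SCAP carries it to the Golgi, the proteases encoded by Mbtps1 and Mbtps2 release its active part, and the genes of the pathway are transcribed together. When sterols are plentiful, the INSIG proteins retain SCAP, and oxidised sterols activate the liver X receptors (LXR), which drive cholesterol export. Alveolar macrophages take up surfactant, which is rich in cholesterol, and several enzymes of the early pathway have been placed in peroxisomes, the organelles that the import receptor PEX5 supplies with enzymes.

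The genes of this pathway are known to share promoter elements, so their promoters are shown first. SREBP2 binds a sterol regulatory element next to sites for the factors NF-Y and Sp1. In the RefSeq promoters of GRCm38.p6, the 250 bases before the start were searched on both strands for TCACNCCAC (a form of the sterol regulatory element), for CCAAT (NF-Y) and for GGGCGG (Sp1). Entries were matched for 23 of the 27 genes, with 29 promoters. Fdps, Fdft1, Sqle and Stard4 were not matched. CCAAT was found in 19 of the 29 (65.5%), against 33.8% of all 32851 promoters in the table, and in at least 1 promoter of 19 of the 23 genes. The 4 matched genes without it were Acat2, Scap, Mbtps1 and Mbtps2. GGGCGG was found in 22 of the 29 (75.9%), against 32.7% of all promoters. TCACNCCAC was found in 1 promoter, that of Hmgcs1, and in 346 of all promoters (1.05%). A match describes the letters and is not evidence of binding. Only these spellings and these 250 bases were searched, so a gene without a match may still have the element. The stretches below lie before the start and outside the exons of coding genes in GENCODE release 21. They are written 5′ to 3′ on the strand of the gene, with each match to the first and second of these motifs in capitals, of which a CCAAT box on the other strand reads ATTGG. Hmgcs1 is shown for its sterol element, Mvk for its 5 CCAAT matches, Ebp and Dhcr7 because their levels did not overlap between the groups, and Insig1 because it feeds back on the pathway.
Hmgcs1, chr13:119690101-119690350, plus strand: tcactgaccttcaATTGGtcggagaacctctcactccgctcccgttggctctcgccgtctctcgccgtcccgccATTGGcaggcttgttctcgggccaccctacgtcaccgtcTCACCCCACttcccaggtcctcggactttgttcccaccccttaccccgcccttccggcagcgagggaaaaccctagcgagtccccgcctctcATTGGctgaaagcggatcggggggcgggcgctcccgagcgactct
Mvk, chr5:114444061-114444268, plus strand: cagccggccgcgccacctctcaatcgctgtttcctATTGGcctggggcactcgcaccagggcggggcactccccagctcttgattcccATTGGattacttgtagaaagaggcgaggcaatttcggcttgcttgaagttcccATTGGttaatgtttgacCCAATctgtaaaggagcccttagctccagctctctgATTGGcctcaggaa
Ebp, chrX:8193513-8193762, minus strand: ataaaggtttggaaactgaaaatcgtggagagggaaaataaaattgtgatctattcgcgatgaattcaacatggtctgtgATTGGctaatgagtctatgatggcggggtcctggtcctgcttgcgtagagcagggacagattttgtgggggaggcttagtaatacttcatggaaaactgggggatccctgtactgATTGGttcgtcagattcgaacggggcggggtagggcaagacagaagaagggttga
Insig1, chr5:28071162-28071362, plus strand: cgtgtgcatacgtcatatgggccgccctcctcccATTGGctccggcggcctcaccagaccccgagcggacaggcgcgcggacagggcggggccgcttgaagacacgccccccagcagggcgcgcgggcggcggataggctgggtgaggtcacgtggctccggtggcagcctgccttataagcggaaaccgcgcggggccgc
Dhcr7, chr7:143822917-143823144, plus strand: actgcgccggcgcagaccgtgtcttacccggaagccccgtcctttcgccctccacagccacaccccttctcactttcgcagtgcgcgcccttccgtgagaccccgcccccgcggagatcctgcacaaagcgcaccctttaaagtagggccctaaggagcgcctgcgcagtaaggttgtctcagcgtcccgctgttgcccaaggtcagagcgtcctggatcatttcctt
The stretch of Dhcr7 holds neither motif. Another of its RefSeq starts has 2 CCAAT matches, but that window lies in exons and is not shown.

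Of the 27 genes 1 rose in Pex5-deficient macrophages and 0 fell. It was Dhcr7, which encodes the reductase that completes cholesterol and lies on chromosome 7 from 143823145 to 143848410 (GRCm38). Levels here are in counts-per-million (CPM), with library sizes scaled by the trimmed mean of M values (TMM), and a set of 3 values is always in the order of replicates 1 to 3. Dhcr7 measured 60.2, 70.9 and 64.6 CPM in the controls. It stood at 107, 85.5 and 94.7 CPM in the Pex5-deficient libraries. Every Pex5-deficient library was above every control library. The mean rose from 65.2 CPM (SD 5.36, n = 3) to 95.6 CPM (SD 10.6, n = 3), and the fitted rise was 1.46-fold. Values after ± are SD for levels and SE for log2 fold changes. The log2 fold change was 0.55 ± 0.12 (SE), with a 95% interval from 0.28 to 0.82 and an adjusted p of 0.0437 (quasi-likelihood test of edgeR, Benjamini-Hochberg adjustment over all genes tested). That lies just inside the threshold of 0.05. The call held without Pex5-deficient replicate 2 (adjusted p = 0.0295). Leaving out any other library ended it: Pex5-deficient replicate 1 (0.147) or 3 (0.0907), or any of the controls (0.177, 0.0886 and 0.132). The log2 fold change was 0.46 to 0.64 in these 6 fits. With the replicate number as a block in edgeR it was 0.55, and the call was also lost (adjusted p = 0.177).

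The share of genes called was near that of the whole table. Over all 11011 genes 3.25% were called (1.74% higher, 1.51% lower), and 1 of 27 is 3.70%. A difference at an unadjusted p under 0.05 was found for 4 of the 27, each higher in Pex5-deficient, where 9.70% of all genes were higher by that measure and 9.17% lower. The groups did not overlap for Dhcr7 and Ebp, both higher, so for 7.41% of the 27, against 26.1% of all genes (13% higher and 13.1% lower). DESeq2 also called Dhcr7 alone of the set, where 3.57% of all genes were higher by its test and 3.29% lower. The direction leaned one way: 19 of the 27 log2 fold changes were above 0, against 49.9% of all genes, and the median was 0.18, against -0.00 over all genes. With scaling by library size alone the median over all genes moved to 0.17 and that of the set to 0.36, with 23 of 27 above 0, so the distance between them was 0.18 by either scaling. That scaling also called Fdps (adjusted p = 0.0264) and Msmo1 (0.0309).

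**Figure D1:**
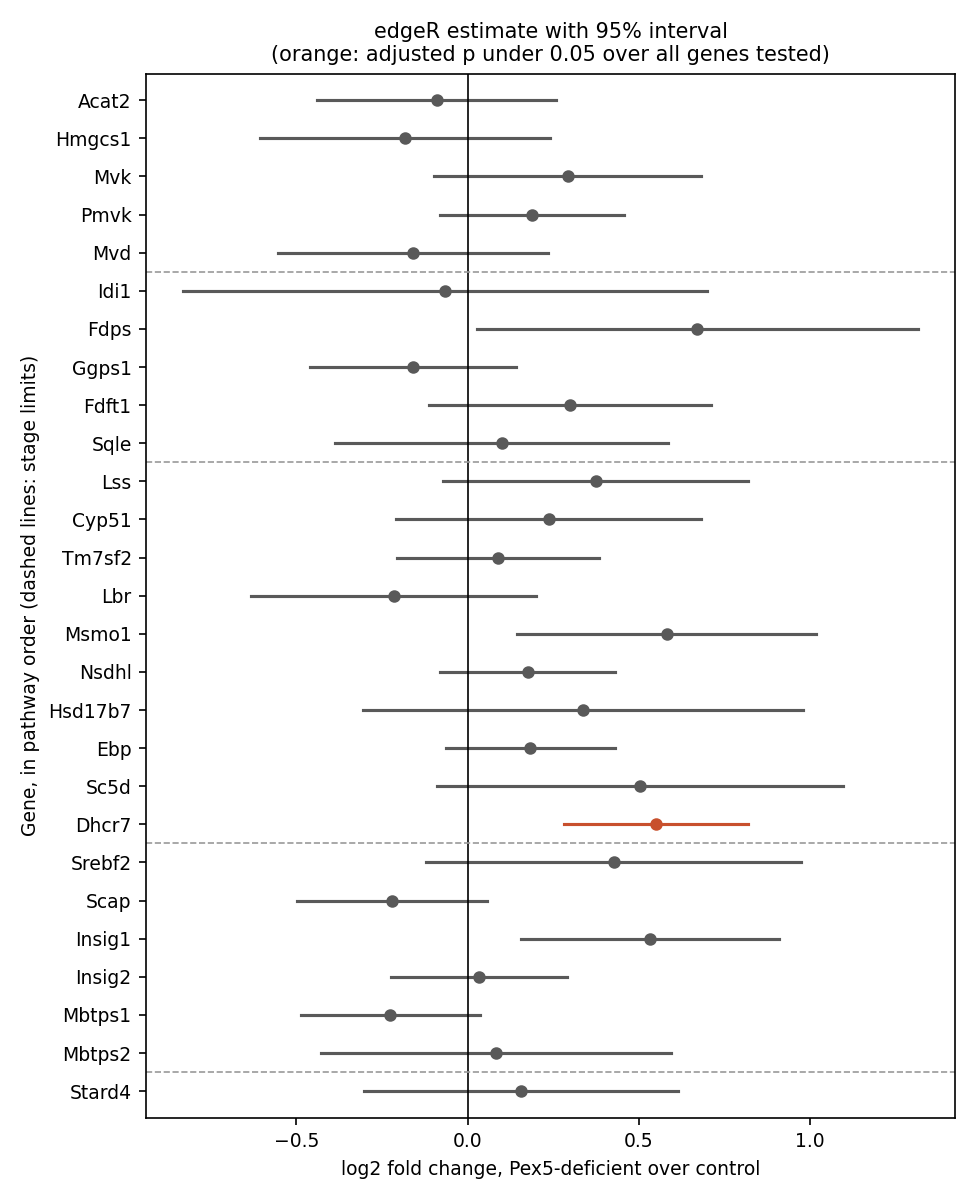
Log2 fold change of each gene in pathway order, Pex5-deficient over control, with its 95% interval from edgeR (3 libraries per group). Dhcr7, in orange, passed the adjusted threshold, and the intervals of Fdps, Msmo1 and Insig1 also lie above 0.

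The first enzymes, which make mevalonate and activate it, stood on both sides of 0. Hmgcs1, which condenses the precursor of mevalonate, measured 95.6, 115 and 65.6 CPM in the controls and 83.5, 85.9 and 73.6 CPM in the Pex5-deficient libraries. The control libraries spread more widely than the Pex5-deficient ones, which all lay within the control range (log2 fold change -0.18 ± 0.19, adjusted p = 0.646). Gm48342 overlaps 557 of the 4594 exonic bases of Hmgcs1 on the opposite strand, so Hmgcs1 is uncertain in part. Mvd, which decarboxylates the activated mevalonate, measured 72.4, 104 and 73.9 CPM in the controls and 88.6, 71.8 and 64.0 CPM in the Pex5-deficient libraries, with groups that overlap (-0.16 ± 0.17). The mevalonate kinase gene Mvk, whose product has been placed in peroxisomes, measured 11.3, 15.5 and 11.7 CPM in the controls and 16.2, 17.8 and 13.4 CPM in the Pex5-deficient libraries. Replicates 1 and 2 of Pex5-deficient lay above all controls and replicate 3 did not (0.29 ± 0.17, adjusted p = 0.397). Pmvk, the next kinase, differed by 0.19 ± 0.12, from 29.6 ± 3.63 to 33.8 ± 2.499 CPM. Acat2, the thiolase that joins acetyl-CoA units in the cytosol, differed by -0.09 ± 0.15. It shares 35.3% of the 100-base words of its longest transcript with other genes, chiefly its copy Acat3, so its count is uncertain. The signs of Hmgcs1, Mvd and Acat2 turned positive with scaling by library size alone or without control replicate 2.

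In the isoprenoid and squalene steps Fdps, which makes farnesyl diphosphate, had the largest fitted difference of the 27. It measured 40.9, 71.0 and 38.8 CPM in the controls and 108, 76.3 and 56.1 CPM in the Pex5-deficient libraries. Pex5-deficient replicates 1 and 2 lay above every control library, but replicate 3 lay below control replicate 2. The log2 fold change was 0.67 ± 0.28 (95% interval from 0.03 to 1.31, adjusted p = 0.248), and it ranged from 0.40 without Pex5-deficient replicate 1 to 1.006 when control replicate 2 was left out. The count is uncertain in part, since the coding gene Gm43738 lies on the same strand over 1124 of the 4208 exonic bases. Gm43738 itself measured 65.8 ± 20.6 CPM in the controls and 96.9 ± 26.97 CPM in the Pex5-deficient libraries (0.55 ± 0.25, adjusted p = 0.271). Fdft1, which joins farnesyl units into squalene, measured 37.2, 59.8 and 41.9 CPM in the controls and 62.7, 59.5 and 49.0 CPM in the Pex5-deficient libraries (0.30 ± 0.18, adjusted p = 0.413). Control replicate 2 lay above Pex5-deficient replicates 2 and 3. The cathepsin gene Ctsb, at 2673 ± 191 CPM in the controls, overlaps 774 exonic bases of Fdft1 on the opposite strand, and no source used here gives the strand setting of the counting, so Fdft1 is uncertain as well. Ctsb differed by 0.15 ± 0.27.

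Sqle, the squalene epoxidase, measured 37.9, 51.9 and 30.3 CPM in the controls and 50.1, 45.8 and 33.1 CPM in the Pex5-deficient libraries, so the groups overlapped almost fully (0.10 ± 0.21, adjusted p = 0.850). Idi1, the isomerase that supplies the other isoprenoid unit, was among the lowest of the set and the most variable in control, at 8.21, 9.22 and 3.24 CPM. Its Pex5-deficient libraries lay close together at 7.04, 6.39 and 6.39 CPM, inside the control range. The difference of -0.07 ± 0.34 changed sign under several settings, among them limma-voom, scaling by library size alone and leaving out control replicate 1 or 2. Idi1 shares 27.6% of its words with other genes and is uncertain. Ggps1, which takes farnesyl diphosphate towards protein prenylation instead of sterols, measured 19.7 ± 0.67 CPM in the controls and 17.7 ± 2.52 CPM in the Pex5-deficient libraries (-0.16 ± 0.13, adjusted p = 0.567).

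Of the 10 enzymes that close and trim the sterol ring, 9 had log2 fold changes above 0, with a median of 0.29. Msmo1, the sterol methyl oxidase, measured 60.7, 81.4 and 51.4 CPM in the controls and 116, 94.8 and 79.6 CPM in the Pex5-deficient libraries. Only Pex5-deficient replicate 3 lay within the control range, just under control replicate 2. The log2 fold change of 0.58 ± 0.19 (95% interval from 0.15 to 1.02) had an adjusted p of 0.147. Sc5d, the desaturase that acts just before Dhcr7, measured 22.6, 33.2 and 16.7 CPM in the controls and 45.1, 27.6 and 30.9 CPM in the Pex5-deficient libraries (0.50 ± 0.26, adjusted p = 0.334). Pex5-deficient replicate 1 alone was above control replicate 2. Ebp, the sterol isomerase, measured 62.6, 72.0 and 70.6 CPM in the controls and 74.9, 85.3 and 72.7 CPM in the Pex5-deficient libraries. The groups did not overlap, but the lowest Pex5-deficient and the highest control library were close, and the difference of 0.18 ± 0.11 had an adjusted p of 0.400.

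Lss, the cyclase that makes lanosterol, measured 14.2, 19.7 and 15.1 CPM in the controls and 23.2, 24.7 and 15.8 CPM in the Pex5-deficient libraries (0.37 ± 0.20, adjusted p = 0.339). Pex5-deficient replicates 1 and 2 were the highest of the 6 and replicate 3 was among the controls. Cyp51, the lanosterol demethylase, went from 52.7 ± 14.4 to 62.2 ± 9.94 CPM (0.24 ± 0.20). Hsd17b7, a reductase of the sterol ring steps, went from 9.27 ± 3.54 to 11.8 ± 2.43 CPM (0.34 ± 0.28). Neither passed the test, and for both control replicate 2 lay within the Pex5-deficient range. Nsdhl, the sterol dehydrogenase, was nearly constant in control at 22.8, 23.5 and 23.2 CPM and measured 28.2, 27.3 and 22.9 CPM in the Pex5-deficient libraries (0.18 ± 0.11, adjusted p = 0.441). The sterol reductase genes Tm7sf2 and Lbr, whose products act on the same double bond, had opposite signs. Tm7sf2 went from 16.2 ± 1.09 to 17.2 ± 1.84 CPM (0.09 ± 0.13) and Lbr, which also anchors chromatin at the nuclear envelope, from 12.5 ± 1.22 to 10.8 ± 2.32 CPM (-0.22 ± 0.18), neither passing the test. Both counts are uncertain in part, since Vps51 overlaps exons of Tm7sf2 on the same strand and Dnah14 those of Lbr on the opposite strand.

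**Figure D2:**
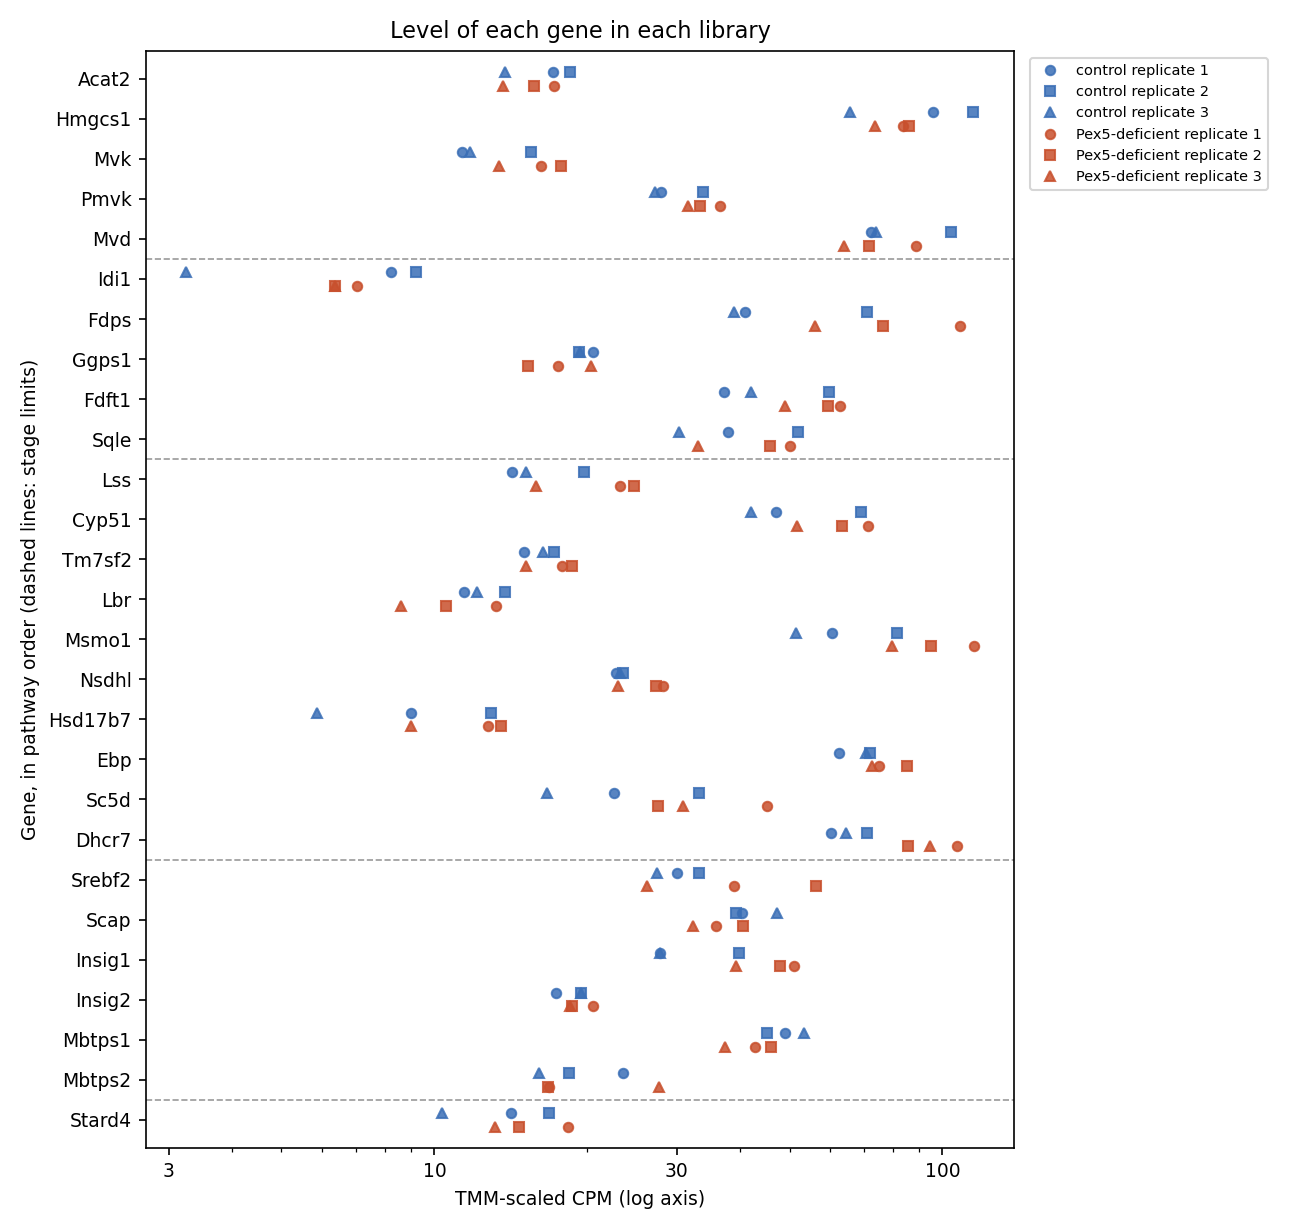
TMM-scaled CPM of each gene in each of the 6 libraries on a log axis, with genes in pathway order. Dhcr7 and Ebp are the genes whose groups do not overlap, and for most enzymes control replicate 2 (blue squares) lies among the Pex5-deficient libraries.

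Of the 6 genes that control SREBP2, none passed the test, and Insig1 had the largest log2 fold change. Insig1, an SREBP2 target whose product retains SCAP, measured 27.8, 39.7 and 27.7 CPM in the controls and 51.1, 47.9 and 39.2 CPM in the Pex5-deficient libraries. Pex5-deficient replicate 3 lay just below control replicate 2 and the other libraries were apart. The log2 fold change was 0.53 ± 0.17 (95% interval from 0.15 to 0.91, adjusted p = 0.128). Insig2, which sterols regulate less, measured 17.4, 19.4 and 19.4 CPM in the controls and 20.5, 18.7 and 18.5 CPM in the Pex5-deficient libraries, with a 95% interval of the log2 fold change from -0.22 to 0.29. In each library the ratio of Insig1 to Insig2 counts, which no scaling touches, was 1.604, 2.05 and 1.43 in control and 2.49, 2.57 and 2.12 in the Pex5-deficient libraries. The ratio was higher in all Pex5-deficient libraries than in all controls, with a two-sided exact permutation p of 0.10, the smallest that 3 against 3 libraries can give, and 0.30 after adjustment over 6 ratios. These 6 ratios were chosen after the values were seen.

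Srebf2 itself measured 29.96, 33.2 and 27.4 CPM in control replicates 1 to 3. The Pex5-deficient libraries were spread from below to above these, at 38.8, 56.4 and 26.2 CPM (0.43 ± 0.24, adjusted p = 0.378). The highest value was that of Pex5-deficient replicate 2, and without that library the log2 fold change was 0.11. Scap measured 40.3, 39.2 and 47.2 CPM in the controls and 35.8, 40.5 and 32.3 CPM in the Pex5-deficient libraries (-0.22 ± 0.12, adjusted p = 0.371). The gene 5830462I19Rik overlaps 985 of the 7443 exonic bases of Scap on the opposite strand, so Scap is uncertain in part. Mbtps1, the first of the proteases that release SREBP2, went from 49.1 ± 4.21 to 42.0 ± 4.36 CPM (-0.23 ± 0.11, adjusted p = 0.328). Scap and Mbtps1 were thus lower in mean where Insig1 and Srebf2 were higher, though none passed the test. Mbtps2, the second protease, was at 23.5, 18.4 and 16.1 CPM in the controls and 16.8, 16.7 and 27.7 CPM in the Pex5-deficient libraries (0.08 ± 0.22). Its highest library was Pex5-deficient replicate 3, the lowest of its group for most other members. Yy2, a gene of 3.51 ± 0.99 CPM in control, lies over 2867 of the 10105 exonic bases of Mbtps2 on the same strand, so Mbtps2 is uncertain. Stard4, which moves sterols between membranes and is itself an SREBP2 target, measured 14.2, 16.8 and 10.3 CPM in the controls and 18.3, 14.7 and 13.2 CPM in the Pex5-deficient libraries (0.16 ± 0.20, adjusted p = 0.730).

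**Figure D3:**
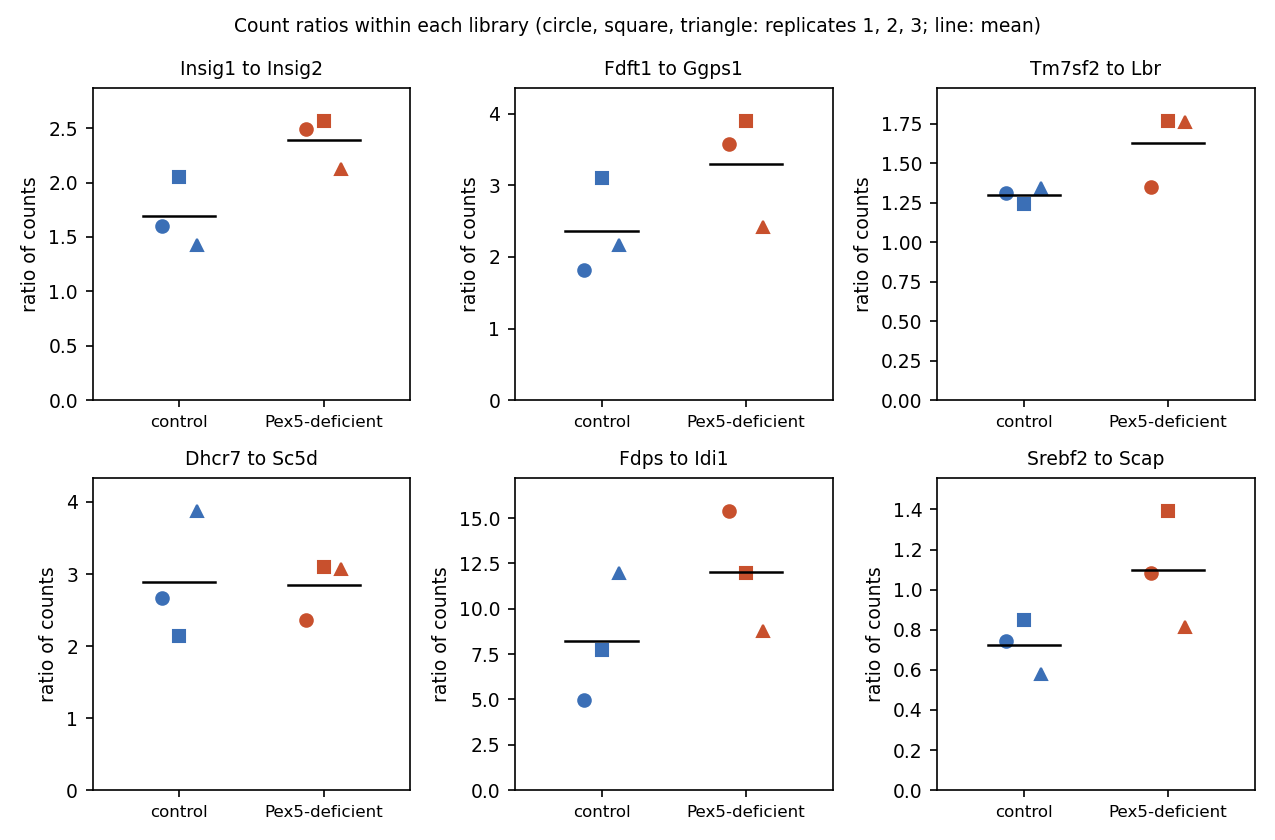
Ratio of the counts of 6 gene pairs within each library, by group, with replicates 1, 2 and 3 as circle, square and triangle and the mean as a line. The ratios of Insig1 to Insig2 and of Tm7sf2 to Lbr do not overlap between the groups, and those of the other 4 pairs do. For Tm7sf2 to Lbr the closest libraries of the groups are almost equal.

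The other ratios set branches and paralogs side by side. A ratio that holds a gene called uncertain above is uncertain as well. Fdft1 to Ggps1, the sterol against the prenylation branch of farnesyl diphosphate, was 1.81, 3.10 and 2.16 in control and 3.58, 3.90 and 2.42 in the Pex5-deficient libraries (exact permutation p = 0.20, adjusted p = 0.30). Control replicate 2 lay above Pex5-deficient replicate 3. Tm7sf2 to Lbr was 1.30 ± 0.05 in control and 1.63 ± 0.24 in Pex5-deficient libraries (exact permutation p = 0.10, adjusted p = 0.30). These did not overlap, but Pex5-deficient replicate 1 (1.349) and control replicate 3 (1.344) were almost equal. Srebf2 to Scap was 0.724 ± 0.134 in control and 1.095 ± 0.291 in Pex5-deficient libraries (exact permutation p = 0.20). For Dhcr7 to Sc5d, the last 2 steps in the order used here, the means were 2.89 ± 0.89 and 2.85 ± 0.415 (exact permutation p = 1). Fdps to Idi1 was 8.22 ± 3.53 in control and 12.04 ± 3.31 in Pex5-deficient libraries (exact permutation p = 0.30), with overlap.

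Much of the variation lay between libraries of the same group. Control replicate 2 was the highest control library for 22 of the 27 genes, and Pex5-deficient replicate 3 was the lowest Pex5-deficient library for 23. For 23 genes Pex5-deficient replicate 3 was below control replicate 2. The median difference from the control mean over the 27 genes, on the log2 scale, was -0.06, 0.28 and -0.13 in the controls and 0.31, 0.23 and 0.01 in the Pex5-deficient libraries. Control replicate 2 was thus as high as Pex5-deficient replicates 1 and 2, and Pex5-deficient replicate 3 was at the level of the control mean. Pex5-deficient replicates 1, 2 and 3 were above all controls for 16, 11 and 3 genes. Against control replicates 1 and 3 alone, they were above both for 21, 17 and 12 genes. Dhcr7, Insig1, Msmo1, Fdps and Sc5d were among the 12. Control replicate 2 was left out there because of these same values, and leaving out a control can only raise such counts. The difference of the group means exceeded the range within both groups for 2 genes, Dhcr7 and Insig1, and was under the range within both groups for 21. For Insig1 the margin was small (0.55 against a control range of 0.52, log2 scale) and the groups overlapped. The counts in this paragraph were not made over all genes, so whether they set the 27 apart was not tested.

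The enzymes varied more between control libraries than the control genes did. Over the 20 enzymes the median coefficient of variation was 19.6% in control and 14.2% in Pex5-deficient libraries. Over the 6 control genes it was 9.92% and 12.3%, and over all genes tested 11.5% and 14.2%. Idi1 (46.5%), Hsd17b7 (38.2%), Fdps (35.8%) and Sc5d (34.6%) varied most between control libraries, and Nsdhl (1.55%), Ggps1 (3.40%) and Insig2 (6.35%) least. By stage, the median difference of the ring enzymes from the control mean was -0.11, 0.22 and -0.06 in the controls and 0.50, 0.31 and 0.02 in the Pex5-deficient libraries. The mevalonate enzymes were at -0.08, 0.28 and -0.15 in control and 0.11, -0.06 and -0.26 in Pex5-deficient libraries. The isoprenoid and squalene enzymes were at -0.05, 0.41 and -0.32 in control and 0.36, 0.23 and 0.04 in Pex5-deficient libraries. At both of these stages control replicate 2 was the highest of all 6.

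**Figure D4:**
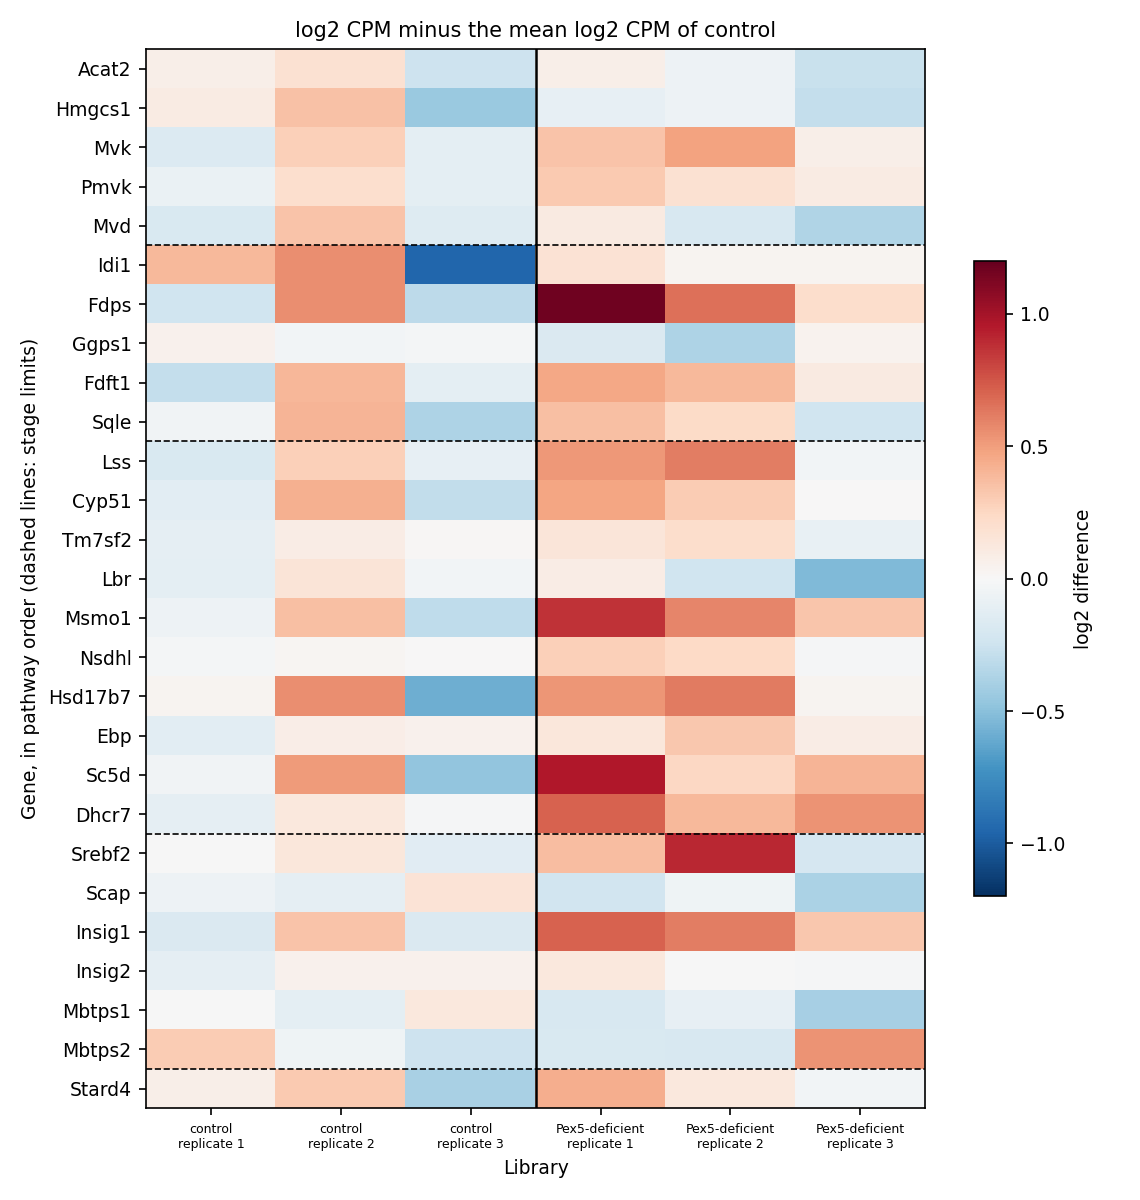
Difference of log2 CPM from the mean log2 CPM of the control libraries, for each gene in pathway order and each library, red where higher and blue where lower. Control replicate 2 is red for most enzymes, and Pex5-deficient replicate 3 is pale or blue for most but red for Dhcr7, Mbtps2, Sc5d, Msmo1 and Insig1.

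Per length, the most abundant transcript of the set was Mvd, at 44.9 ± 9.58 CPM per kb of exonic bases in control and 40.2 ± 6.76 in Pex5-deficient libraries. Ebp followed with 29.6 ± 2.19 and 33.6 ± 2.90, then Hmgcs1 with 20.0 ± 5.37 and 17.6 ± 1.41 and Pmvk with 17.3 ± 2.12 and 19.7 ± 1.46 CPM per kb. In control Hmgcs1 and Pmvk did not differ beyond their spread. Fdps, Cyp51, Dhcr7, Fdft1, Msmo1 and Insig1 formed a close group between 10.3 and 11.9 CPM per kb in control, and Dhcr7 stood at 16.4 ± 1.82 in Pex5-deficient libraries. Srebf2, at 4.20 ± 0.40 CPM per kb, and Scap, at 5.67 ± 0.58, lay lower in control. The lowest were Lss, at 1.52 ± 0.27, Hsd17b7, at 1.82 ± 0.69, Mbtps2, at 1.91 ± 0.38, and Idi1, at 1.97 ± 0.91 CPM per kb, which overlapped each other. Exonic bases were counted over all isoforms in GENCODE, which sets a gene with long rare isoforms low, and Lss had 10787 such bases.

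**Figure D5:**
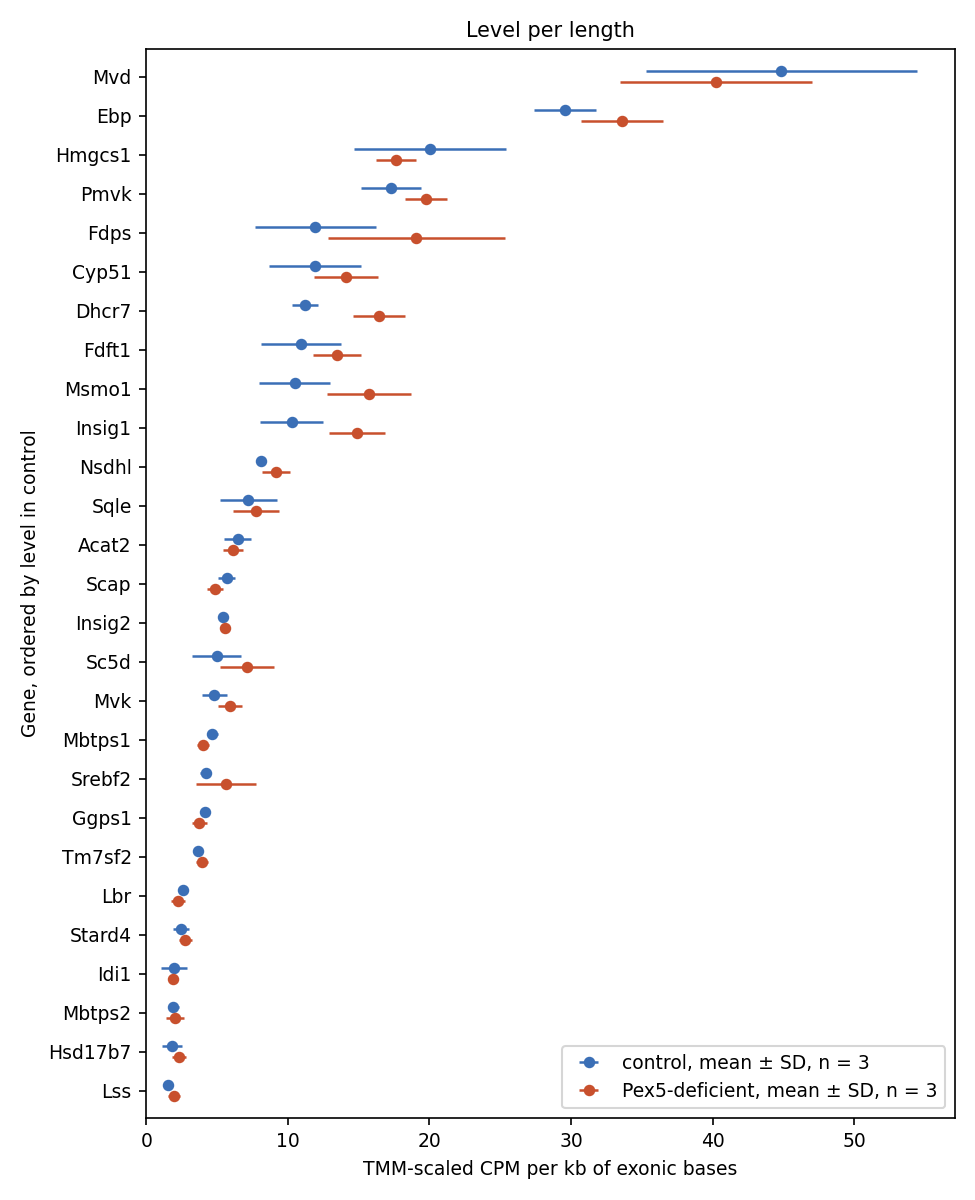
Mean and SD (n = 3 per group) of TMM-scaled CPM per kb of exonic bases, with genes ordered by their control level. Mvd and Ebp lead the set and Lss is lowest in control.

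Genes around the pathway were counted in lists by function. Beside these counts, 3.25% of all genes tested were called, 1.74% higher and 1.51% lower. Of 22 tested genes of the isoprenoid branches, which feed protein prenylation, dolichol and ubiquinone, 1 rose and 0 fell: Rabggtb, a subunit of the enzyme that prenylates Rab proteins, from 12.4 ± 2.03 to 21.95 ± 0.93 CPM (a log2 fold change of 0.82 ± 0.14 with an adjusted p of 0.0233). For 7 of these 22 the groups did not overlap and were higher, against 13% of all genes, and the list's median was 0.11. Of 17 tested genes of sterol-regulated protein turnover 1 fell, Rnf145, a ubiquitin ligase and LXR target that acts on SCAP, from 17.1 ± 0.79 to 10.5 ± 0.85 CPM (-0.71 ± 0.13, adjusted p = 0.0258), and the median was 0.02. Of 21 tested genes of cholesterol esters and trafficking 1 rose, Ch25h, which makes an oxysterol that blocks SREBP2 release, from 37.1 ± 17.8 to 156 ± 69.9 CPM (2.07 ± 0.41, adjusted p = 0.0346), with a median of -0.00.

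Of 16 tested LXR targets and receptors 5 fell and 1 rose, with a median of -0.48, where 3.25% of all genes were called. Abca1, the cholesterol export pump, fell from 32.1 ± 4.08 to 10.5 ± 4.14 CPM, and the receptor gene Nr1h3 rose from 48.1 ± 1.65 to 112 ± 15.1 CPM. Of 14 tested genes of fatty acid synthesis, which SREBP1 drives, 1 fell, the elongase gene Elovl6, from 7.74 ± 2.87 to 2.22 ± 0.51 CPM, with a median of -0.10. Srebf1, the gene of SREBP1, differed by -0.04 ± 0.11 (adjusted p = 0.884). Of 20 tested genes outside the pathway that SREBP2 is known to induce or that serve its enzymes, 0 were called, and the 2 with the smallest p were both lower, Lpin1 (-0.57 ± 0.15, adjusted p = 0.0878) and Cyb5r3 (-0.52 ± 0.17, adjusted p = 0.136), while the list's median was 0.18.

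Total counts ranged from 13325609 to 19413838 per library, and the 27 genes together summed to 845 to 1123 CPM in the controls and 957 to 1221 CPM in the Pex5-deficient libraries, with overlap. On unscaled library sizes the sums were 806 to 1033 and 872 to 1496, the highest in Pex5-deficient replicate 2, which stood apart. Its 50 most abundant genes took 30.4% of its counts, against 38.3% to 42.1% elsewhere, and its scaling factor was 1.34, against 0.90 to 1.03. Pex5 itself was not lower in the Vav1cre/+ libraries (log2 fold change 0.04 ± 0.11, adjusted p = 0.891), which does not check the deletion, since reads of exons outside a floxed part still count. All 20 alveolar macrophage identity genes of the marker list were tested. Of these 5 fell and 1 rose, where 1.51% of all genes were called lower and 1.74% higher. Siglecf was among those that fell, at 618 to 668 CPM in the controls and 177 to 254 CPM in the Pex5-deficient libraries. Neutrophil markers summed to 84.8 to 98.9 CPM in the controls and 125 to 188 CPM in the Pex5-deficient libraries, led by Mmp8, with 9 of 15, Ly6g, Mpo and Elane among them, at 0 in all libraries. Monocyte and interstitial macrophage markers summed to 141 to 221 CPM in the controls and 189 to 253 CPM in the Pex5-deficient libraries, with overlap, and were led by Fcgr4, with 9 of 12 under 1 CPM everywhere. The part of these differences in the values of the cholesterol genes was not tested. Eosinophil and mast cell markers summed to at most 0.16 CPM and lymphocyte markers to at most 1.64 CPM in any library. In sorted bulk cells a change in the mix of cells and a change of RNA per cell cannot be told apart.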

How the data were processed

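Total RNA of 50000 sorted macrophages per sample was made into libraries with a stranded SMART-Seq kit and read as single ends of 100 bp, per the labels' protocols. The authors deposited 1 table of raw counts by gene symbol. STAR, featureCounts, DESeq2 1.40.1 and R 4.3.2, with the builds GRCm38.p5 and mm10, are named per the submitters' processing notes. Versions of STAR and featureCounts, the annotation and the strand setting are not given in the sources used. No molecular identifiers are named, so counts are of amplified reads.

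Genes were kept with edgeR's filterByExpr (minimum count 10, minimum total 15), scaled with TMM factors and compared with glmQLFit and glmQLFTest (edgeR 4.0.16, R 4.3.3); p-values were two-sided and adjusted by Benjamini-Hochberg over the 11011 genes tested. Standard errors come from the F statistics. DESeq2 1.42.0, limma-voom (limma 3.58.1), other scalings and filters, a replicate block and leaving out each library were alternatives. The steps were tested on simulated data, in 3 simulations with changed genes drawn from all those tested. Of 1.5-fold changes 12.9% were called, of 2-fold changes 68.2% and of 4-fold changes 94.9%. A gene not called may thus still differ, also by 2-fold. Coordinates, exonic bases and shared 100-base words are from GENCODE mouse release 21 (GRCm38), and promoters from RefSeq (GRCm38.p6). Named were all 27 members, Pex5, the called genes of each other pathway list or else its 2 with the smallest p, and the most abundant gene of a marker list. Overlapping genes were named after their values were seen. Not every gene that the rule picks is printed. The members and lists were chosen with earlier results of these data known.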

Additional observations from a re-analysis of the deposited data

How the results depend on the processing

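With scaling by library size alone 289 genes were called higher and 3 members (Fdps, Msmo1 and Dhcr7), and the members' median log2 fold change was 0.36. With a mean of at least 5 CPM 122 genes were called higher, and with DESeq2 393 were called higher and 362 lower. With the replicate number as a block 47 genes were called higher and 36 lower, and 0 members: Dhcr7 kept its log2 fold change of 0.55 with an adjusted p of 0.177, and Idi1 turned to 0.04. Whether the numbers pair the samples is not known. The correlations of same-numbered deviations were -0.21, -0.06 and -0.41, which cannot decide it with 3 libraries per group. Leaving out 1 library gave 38 to 305 genes higher, 38 to 218 lower, 0 to 1 members higher and a members' median of 0.11 to 0.30. Fewer samples entered these fits; otherwise the cause was not tested. No member was called lower under any alternative run, and with edgeR 0 of the 27 were lower at an unadjusted p under 0.05. Of the 378 values of single members under the 14 alternatives, 353 kept their sign and their side of the threshold. The member with the fewest counts, Idi1, had 48 to 161 per library; how depth limits the members was not tested.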

Other observations

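Of the 18 cell cycle genes tested, 2 had log2 fold changes above 0, against 49.9% of all genes, and 1 fell, where 1.51% of all genes were called lower. It was Bub1b, a mitotic checkpoint kinase, from 67.1 ± 2.67 to 42.8 ± 3.32 CPM (a log2 fold change of -0.65 ± 0.10 with an adjusted p of 0.0135 by edgeR), with a list median of -0.25. Of 11 tested immediate early genes, which handling of cells can induce, 1 rose, where 1.74% of all genes were called higher. It was Atf3, from 14.4 ± 2.23 to 37.5 ± 12.9 CPM (1.37 ± 0.23, adjusted p = 0.0203), with a list median of 0.13. The summed level of the immediate early list was 396 to 560.3 CPM in the controls and 386 to 559.7 CPM in the Pex5-deficient libraries.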
